A study of Mus musculus with 6 samples.

Results

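The enzymes of glycolysis, the citric acid cycle and the reactions tied to them were described in the striatum of 3 Hdh4/Q80 mice and 3 wild-type littermates. The set was a list of 49 genes, and each gene was measured by every probe set whose platform annotation names that gene alone. Of the 49 genes, 44 had at least 1 probe set that entered the tests, 59 probe sets in all, out of 8251 genes and 12422 probe sets on the array. Gapdh was covered only by the manufacturer's control probe sets, which are described separately. Gpi1, Eno1, Pdk2 and G6pdx had no probe set under this rule and were not measured. All 44 genes had a value on every array, with no filter on low values.

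All 6 mice were females of strain C57BL/6 aged 12 months, with 1 array per mouse. In Hdh4/Q80 mice the CAG repeat of huntingtin (Htt, formerly Hdh) is expanded within the mouse's own gene, so its own promoter drives a protein with a longer glutamine tract. The labels state no zygosity, and a single mutant line was studied. Each sample was total RNA from striatum, a part of the basal ganglia whose neurons are lost early in Huntington's disease. Such tissue mixes neurons, glia and vessels, so fewer cells of a type and less RNA per cell cannot be told apart.

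Glycolysis splits glucose into pyruvate in the cytosol, and lactate dehydrogenase interconverts pyruvate and lactate. The pyruvate dehydrogenase complex turns pyruvate into acetyl-CoA, which the citric acid cycle oxidises in mitochondria to feed the respiratory chain. Neurons depend on this route for the ATP that drives ion pumps and synaptic transmission, astrocytes are known to export lactate, and altered energy use of the striatum is a long-standing topic in Huntington's disease. The comparison asks whether the messenger RNAs of these enzymes differ in level between mutants and littermates.

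None of the enzymes passed the test between the groups. With limma and Benjamini-Hochberg adjustment over the whole array, 0 of the 59 probe sets had an adjusted p under 0.05, where the share over all 12422 probe sets was 0%. The smallest adjusted p among the enzymes was 0.857. At an unadjusted p under 0.05 there was 1 probe set of 59, a dim one for Hk2, where 5.1% of all probe sets met that limit. It was higher in Hdh4/Q80 mice, as were 2.9% of all probe sets, and 0 were lower, against 2.21%. Counting 1 probe set per gene, the brightest over all 6 mice, 0 of 44 enzymes reached it, against 4.3% of all genes (2.17% higher and 2.13% lower). The 3 mutants lay entirely on one side of the 3 wild types for 4 enzymes of 44, 2 higher (Pdk1, Pgd) and 2 lower (Hk1, Idh3a). Over all genes 11.1% were apart in this way, 5.87% higher and 5.22% lower, so the count of 4 is near the background. By probe set 5 were higher and 3 lower, against 6.67% and 5.05% of all probe sets (11.7% together).

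The differences were small. On the brightest probe sets they ran from -0.18 for Ldha to 0.11 for Suclg2 and Pdk1 (Hdh4/Q80 minus wild type, log2 scale), and the largest corresponds to 1.13-fold. The 95% intervals of all 44 enzymes stayed inside 1.5-fold both ways on the array scale, as did those of 99.1% of all genes. The median difference was -0.036 over the 44 enzymes and -0.0072 over all genes, and 31 of 44 enzymes were below 0, against 53.3% of all genes. By probe set 37 of 59 were below 0, against 51.1% of all probe sets. The sign of this balance depended on 1 mouse. Without Hdh4/Q80 replicate 8 the median was 0.011 and 17 of 44 enzymes were below 0. It also shrank to -0.0081 and 24 enzymes after renewed quantile normalization, to -0.0098 and 23 after cyclic loess, and to -0.0048 and 24 with array weights.

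**Figure D1:**
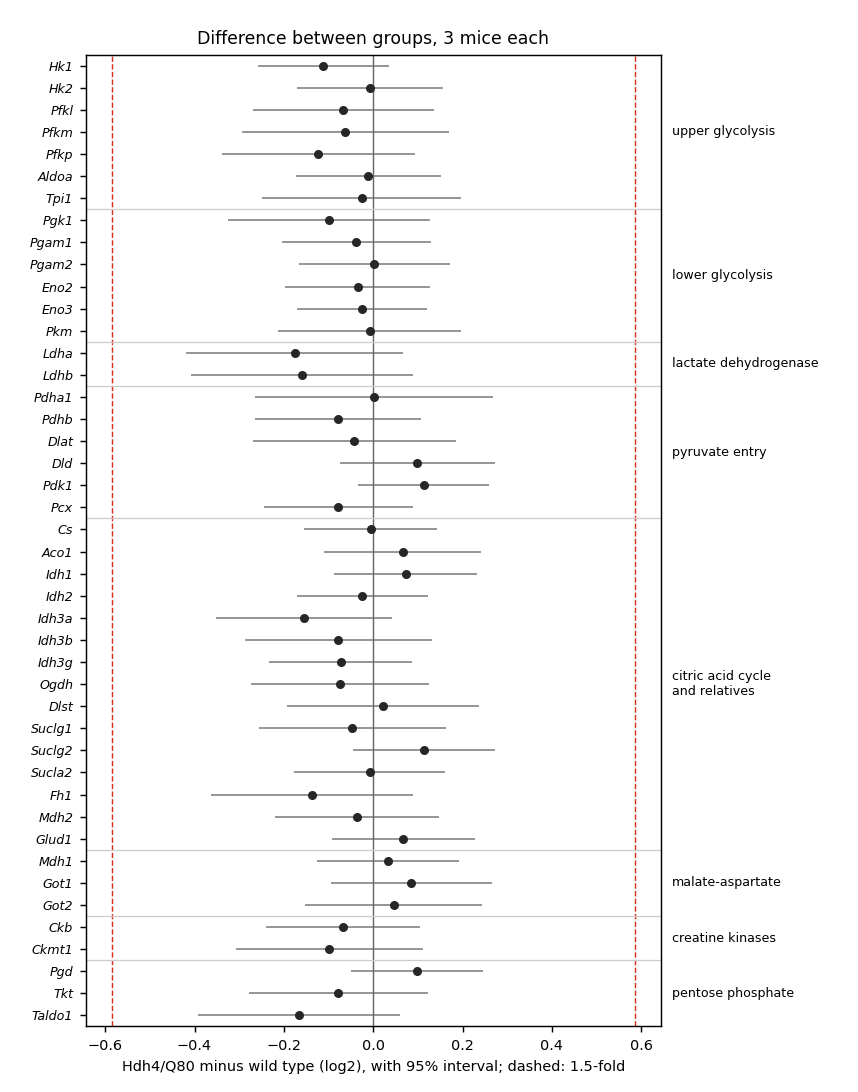
Difference between 3 Hdh4/Q80 and 3 wild-type mice for the brightest probe set of each of 44 enzymes, by pathway step. The x axis gives the log2 difference (Hdh4/Q80 minus wild type), points are estimates, bars are limma's 95% intervals, and the dashed lines mark a 1.5-fold change. Every interval lies between the dashed lines and every interval includes 0.

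Hexokinase, phosphofructokinase and aldolase open the pathway. Hk1 encodes the hexokinase of brain, which traps glucose as glucose 6-phosphate. It read 9.46, 9.40 and 9.47 in wild-type replicates 4, 5 and 6, and 9.31, 9.32 and 9.36 in Hdh4/Q80 replicates 7, 8 and 9 (log2). All 3 mutants lay below all 3 wild types. The difference was -0.11 ± 0.0658 (SE), with a 95% interval of -0.26 to 0.03 (limma, adjusted p = 0.857). Hk1 kept its sign with any 1 mouse left out (-0.14 to -0.097), including replicate 8 (-0.11). It was smaller after quantile normalization (-0.064) and cyclic loess (-0.071).

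The phosphofructokinases catalyse the committed step of glycolysis. Pfkm, the muscle-type subunit that brain also makes, read 10.07, 9.91 and 9.93 in wild type and 9.95, 9.69 and 10.09 in Hdh4/Q80 mice. Replicate 8 was the lowest of the 6 mice and replicate 9 the highest, so the groups overlapped. The difference was -0.06 (interval -0.29 to 0.17), and 0.050 without replicate 8. The liver-type Pfkl and the platelet-type Pfkp differed by -0.07 and -0.12, and replicate 8 was the lowest mouse for both. A second Pfkp probe set differed by -0.16, with replicate 8 at 7.26 and the remaining mice between 7.76 and 8.03.

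Hk2, the hexokinase of insulin-responsive tissue, differed by -0.01 on its brighter probe set. On the dimmer one the mutants read 4.38, 4.36 and 4.48 and the wild types 4.17, 4.14 and 4.31, so the groups did not overlap. Its difference of 0.20 ± 0.0756 (interval 0.03 to 0.37) had an unadjusted p of 0.0255 (limma, adjusted p = 0.857). This set lies below the lower quartile of probe set means (5.82), which is what dim means here. RMA, the method behind the deposited values, shrinks the differences of dim probe sets. The 2 Hk2 probe sets thus differed in sign. Aldoa and Tpi1, which cleave the 6-carbon sugar and interconvert its products, differed by -0.01 and -0.03. A second Aldoa probe set differed by 0.13, and both have a suffix that marks possible binding to related transcripts. The same suffix is on the brightest Sucla2 set and on the second sets of Pkm, Pcx and Glud1. The brightest sets of Pkm, Pcx and Got2 also have suffixes other than the plain one. In this upper segment 7 of 7 measured enzymes were below 0 with a median of -0.062. Without replicate 8 only 2 of 7 were below 0 and the median was 0.0044, and after quantile normalization or cyclic loess it was -0.024 and -0.022.

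The lower segment runs from Gapdh to pyruvate kinase and yields ATP. Gapdh, often used as a reference gene, was read by control probe sets placed at the 5' end, the middle and the 3' end of its transcript. The 3' set read 12.75, 12.67 and 12.76 in wild type and 12.68, 12.53 and 12.70 in Hdh4/Q80 mice. The middle set read 12.76, 12.67 and 12.71 against 12.72, 12.47 and 12.66, and the 5' set 12.50, 12.45 and 12.50 against 12.56, 12.32 and 12.37. On all 3 the lowest mouse was replicate 8, and the groups overlapped. The group differences were -0.09, -0.10 and -0.06, and without replicate 8 they were -0.035, -0.023 and -0.013. These sets were kept out of the fit, so no p is given. A further 2 probe sets name Gapdh together with its pseudogenes and were not used, and the 3 control sets that read the opposite strand lay between 6.96 and 7.36.

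**Figure D2:**
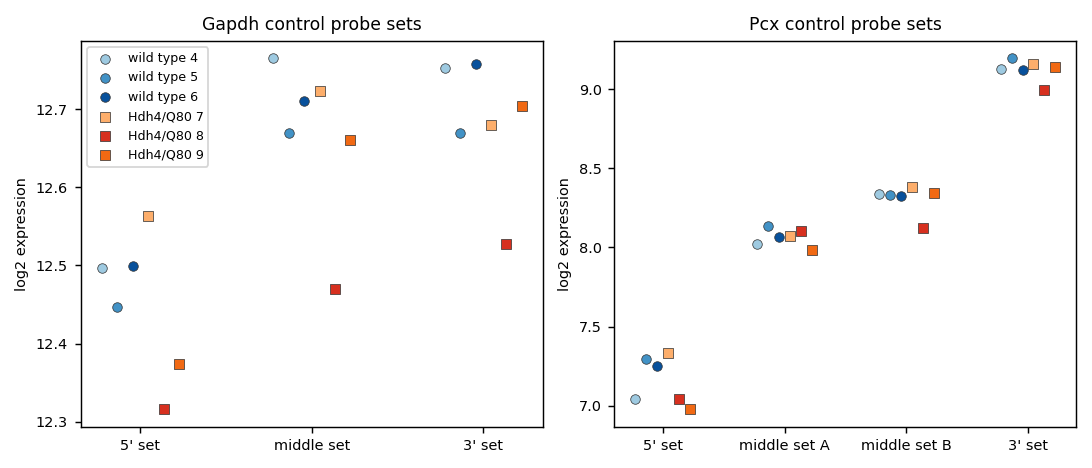
Control probe sets for Gapdh and for pyruvate carboxylase (Pcx) in each of the 6 mice, from the 5' to the 3' end of the transcript on the x axis and log2 expression on the y axis. Hdh4/Q80 replicate 8 is the lowest mouse on all 3 Gapdh sets and on the 3' and middle B sets of Pcx.

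Pgk1, the first ATP-yielding enzyme, read 10.22, 10.02 and 10.08 in wild type and 10.07, 9.80 and 10.16 in Hdh4/Q80 mice. Replicate 8 was the lowest mouse and the other two mutants lay among the wild types. The difference was -0.10 (interval -0.33 to 0.13; adjusted p = 0.874 in limma's test), and 0.0063 without replicate 8. Eno2, the enolase of neurons, read 11.13, 11.04 and 11.05 against 10.99, 10.99 and 11.13, a difference of -0.03 (interval -0.20 to 0.13). Its sign turned after quantile normalization (0.0037) and cyclic loess (0.026). Pkm, pyruvate kinase, read 12.60, 12.42 and 12.46 against 12.54, 12.31 and 12.61, a difference of -0.01 (interval -0.21 to 0.20). The groups overlapped for both genes. Pgam1, the phosphoglycerate mutase of brain, differed by -0.04, and the muscle forms Pgam2 and Eno3 by 0.00 and -0.03. The 6 tested enzymes of this segment had a median difference of -0.030, and 0.0091 without replicate 8.

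Eno2, Tpi1 and Gapdh lie close together on mouse chromosome 6 in the reference gene order, with 2 protein-coding genes between Eno2 and Tpi1 and 18 between Tpi1 and Gapdh. The differences of these neighbours lay between -0.10 and -0.03 on the probe sets given above.

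The lactate dehydrogenases had the largest negative step median. Ldha encodes the subunit that favours lactate formation. It read 10.64, 10.37 and 10.52 in wild type and 10.39, 10.12 and 10.50 in Hdh4/Q80 mice. Replicate 8 was the lowest mouse, and replicates 7 and 9 lay within the wild-type range. The difference was -0.18 ± 0.109 (interval -0.42 to 0.07; adjusted p = 0.857 in limma's test), and -0.067 without replicate 8. Ldhb, the subunit abundant in neurons that favours pyruvate formation, read 9.50, 9.45 and 9.47 against 9.45, 9.03 and 9.46. Replicate 8 stood 0.42 below the lowest of the other mice, which lay close together. The difference was -0.16 (interval -0.41 to 0.09), and -0.017 without replicate 8. A dim second Ldhb probe set differed by 0.05.

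Pyruvate enters the cycle through the pyruvate dehydrogenase complex, which its kinases switch off. Pdk1, one of these kinases, read 6.43, 6.38 and 6.40 in wild type and 6.51, 6.48 and 6.55 in Hdh4/Q80 mice, so all mutants lay above all wild types. The difference was 0.11 ± 0.0655 (interval -0.03 to 0.26; adjusted p = 0.857 in limma's test), and it stayed between 0.092 and 0.13 with any 1 mouse left out. The subunits of the complex did not share a direction. Pdha1 and Pdhb, which form the first enzyme, differed by 0.00 and -0.08, Dlat, the acetyl carrier, by -0.04, and Dld, the dehydrogenase that other complexes share, by 0.10. Replicate 8 was the lowest mouse for Pdha1 (9.16, against 9.40 to 9.64), Pdhb and Dlat, and not for Dld. Pcx, which makes oxaloacetate and is known as an astrocyte enzyme in brain, differed by -0.08 on its brighter probe set and 0.13 on the other. On that other set all mutants lay above all wild types, narrowly for replicate 9. The 4 control sets of Pcx differed by -0.08 to -0.02. The step had a median of -0.020, and 0.084 without replicate 8.

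In the citric acid cycle, Cs, the citrate synthase often used as a measure of mitochondrial content, was nearly level. It read 9.24, 9.21 and 9.24 in wild type and 9.22, 9.17 and 9.28 in Hdh4/Q80 mice, with a difference of -0.01 (interval -0.15 to 0.14). Idh3a, the catalytic subunit of the NAD-linked isocitrate dehydrogenase, read 8.74, 8.76 and 8.82 against 8.69, 8.43 and 8.73. All mutants lay below all wild types, narrowly for replicate 9. The difference was -0.15 ± 0.0881 (interval -0.35 to 0.04; adjusted p = 0.857 in limma's test), and -0.062 without replicate 8. Its partner subunits Idh3b and Idh3g differed by -0.08 and -0.07, but without wild-type replicate 5, the highest mouse for Idh3b, that gene's difference was 0.022. The NADP-linked Idh1 of the cytosol and Idh2 of mitochondria differed by 0.07 and -0.02.

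Ogdh, Dlst and the shared Dld build the 2-oxoglutarate dehydrogenase complex, whose flux is often named as rate-limiting for the cycle. Ogdh differed by -0.07. Dlst differed by 0.02 on one probe set and by -0.19 (interval -0.42 to 0.05) on a second, so its direction is not settled by these sets. Among the succinyl-CoA ligase subunits, Suclg2, the GTP-forming subunit, had a positive difference (0.11, interval -0.05 to 0.27), while the ATP-forming Sucla2 (-0.01) and their common partner Suclg1 (-0.05) did not. Fh1, fumarase, differed by -0.14 and by -0.017 without replicate 8. Mdh2, the mitochondrial malate dehydrogenase, differed by -0.04. Glud1, which links glutamate to the cycle, and Aco1, the cytosolic aconitase that also acts as an iron sensor, both differed by 0.07. Of the 15 genes in this group 10 were below 0, with a median of -0.025. Without replicate 8 the count was 5 and the median 0.030, and the median was also above 0 after quantile normalization (0.016) and cyclic loess (0.021).

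The malate-aspartate shuttle carries reducing equivalents from the cytosol into mitochondria. Mdh1, its cytosolic malate dehydrogenase, read 7.41, 7.56 and 7.48 in wild type and 7.51, 7.57 and 7.48 in the mutants, with a difference of 0.03. Got1, the cytosolic aspartate aminotransferase, was dim. It read 5.50, 5.51 and 5.61 against 5.58, 5.53 and 5.76 (difference 0.09, interval -0.09 to 0.27). Got2, the mitochondrial form, differed by 0.05 on its brighter set and -0.03 on the dim one. The groups overlapped for each. For Mdh1 and the brighter Got2 set replicate 8 was the highest mouse, and without it the difference of that Got2 set was -0.041.

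Creatine kinases buffer ATP through phosphocreatine. Ckb, the brain form, read 13.15, 13.08 and 13.09 in wild type and 13.07, 12.91 and 13.12 in the mutants, with a difference of -0.07 (interval -0.24 to 0.10). Its sign turned after cyclic loess (0.016), and without replicate 8 it was -0.0045. Ckmt1, the mitochondrial form, read 8.28, 8.02 and 8.04 against 8.03, 7.89 and 8.13 (difference -0.10). Its second probe set gave 0.12 with all mutants above all wild types. The mean of both probe sets differed by 0.011.

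The pentose phosphate path makes NADPH and ribose. Pgd, 6-phosphogluconate dehydrogenase, read 8.70, 8.67 and 8.64 in wild type and 8.75, 8.82 and 8.73 in Hdh4/Q80 mice, and the groups did not overlap. The difference was 0.10 ± 0.0664 (interval -0.05 to 0.25; adjusted p = 0.857 in limma's test), with 0.19 on a second probe set, where replicate 8 stood highest at 7.47. Taldo1, transaldolase, read 7.88, 7.87 and 7.94 against 7.87, 7.49 and 7.83 (difference -0.17, interval -0.39 to 0.06). Replicate 8 lay 0.34 below the lowest of the other mice, and without it the difference was -0.044. Tkt, transketolase, differed by -0.08, and by 0.015 without replicate 8.

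**Figure D3:**
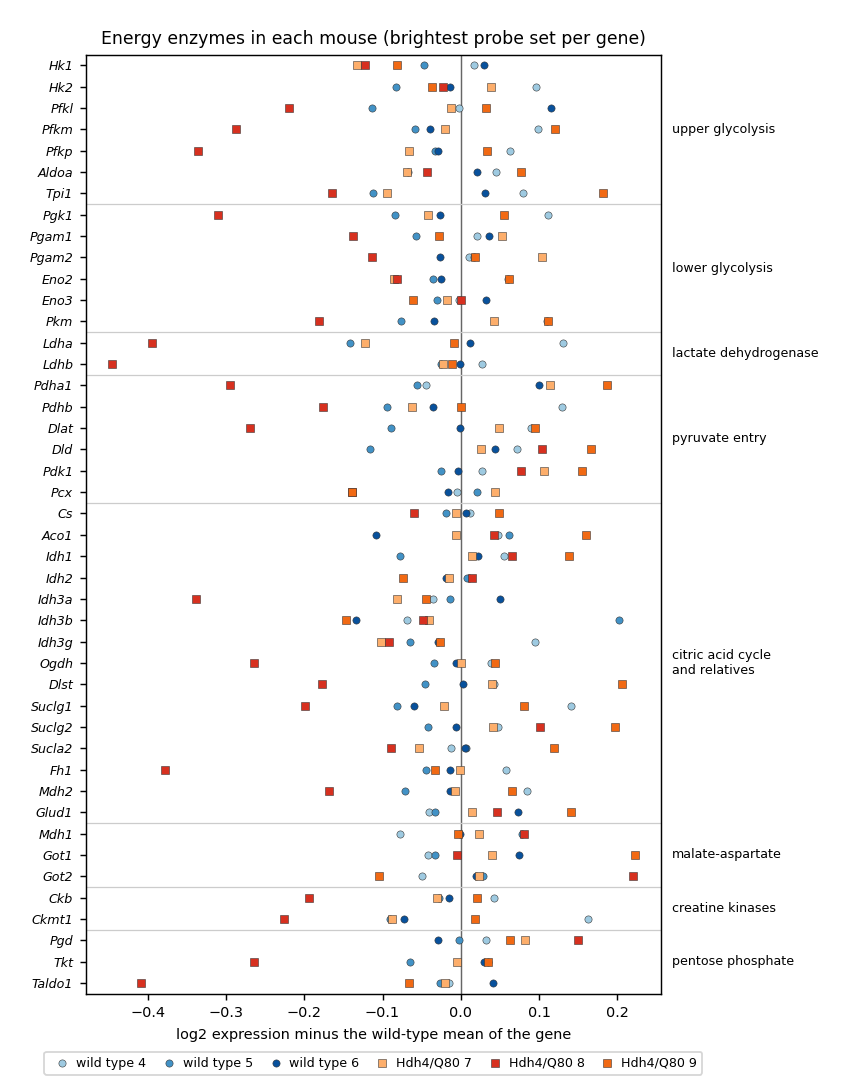
Brightest probe set of each of 44 enzymes in each mouse, as log2 expression minus the wild-type mean of that gene on the x axis, with circles for wild type and squares for Hdh4/Q80. Replicate 8 of Hdh4/Q80 is the lowest mouse for 25 enzymes, and replicate 9, of the same group, is the highest for 19.

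The enzymes varied more between mutant mice than between wild types. The median SD was 0.112 in Hdh4/Q80 and 0.0574 in wild type over the 44 enzymes, and 0.107 and 0.0661 over all genes. Replicate 8 was the lowest of the 6 mice for 25 of 44 enzymes (56.8%), and for 18 of them (40.9%) it lay more than 0.1 log2 units below every other mouse. Over all genes these shares were 36.0% and 20.1%. When all genes are split by level into 4 equal groups, the shares in the brightest group were 56.4% and 36.8%. For the 25 enzymes in that group they were 76% and 52%. The largest gaps were those of Ldhb (0.42), Taldo1 (0.34), Fh1 (0.33), Pfkp (0.27) and Idh3a (0.26). At the other end, replicate 9, also a mutant, was the highest mouse for 19 enzymes (43.2%, against 21.1% of all genes), and wild-type replicate 4 for 12. The mean deviation of the 44 enzymes from the 6-mouse mean was -0.115 in replicate 8 and 0.061 in replicate 9, both mutants, so 2 mice of the same group lay at opposite ends.

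Replicate 8 was an array that stood apart in general, and its deviation moved with brightness. It correlated with the remaining arrays at a mean of 0.992, where the other mice had 0.995 to 0.997. All genes were ranked by level and split into 4 groups of equal size, and 25 of the 44 enzymes were in the brightest group. In that group replicate 8 deviated by -0.153 on average for the enzymes and by -0.092 for all 2063 genes. In the dimmest group all genes deviated by 0.034 there. Within the brightest group 22 of 25 enzymes had a difference below 0 (88.0%), against 66.3% of all genes in it, and the median differences were -0.062 and -0.036. Without replicate 8, 10 of those 25 were below 0. The part of array brightness in the enzymes' values was not tested.

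**Figure D4:**
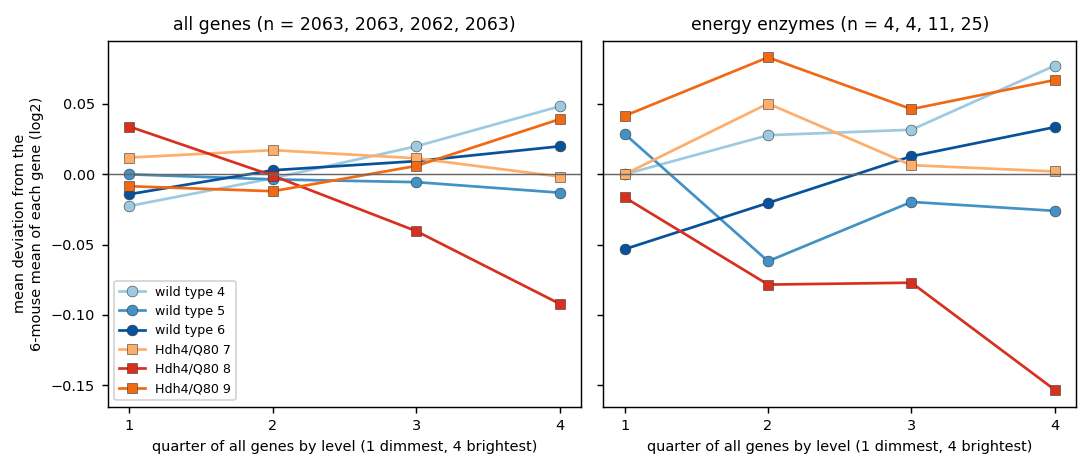
Mean deviation of each mouse from the 6-mouse mean (log2, y axis) in 4 equal groups of all genes by level (x axis), for all genes and for the 44 enzymes. Replicate 8 of Hdh4/Q80 goes from 0.034 in the dimmest to -0.092 in the brightest group over all genes, and reaches -0.153 for the enzymes of the brightest group, where n = 25.

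**Figure D5:**
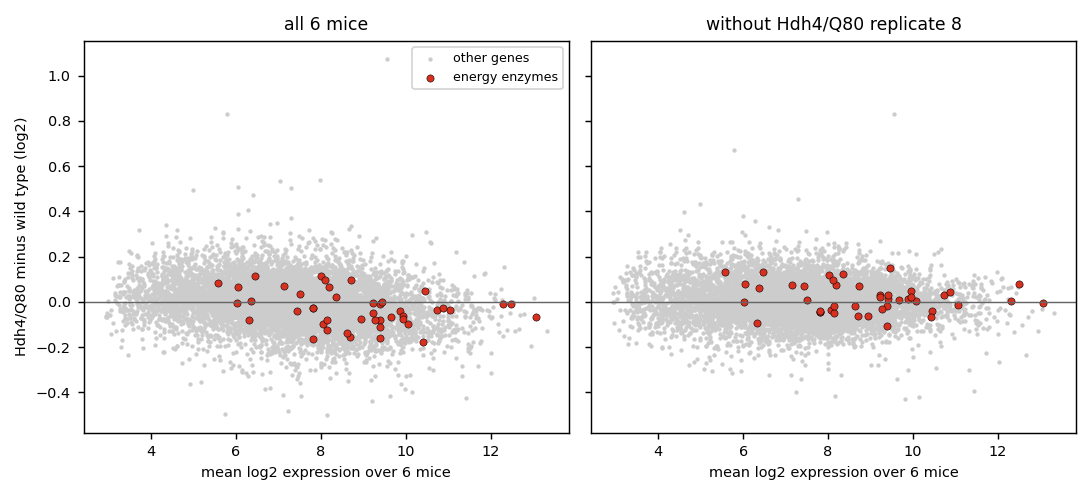
Difference between Hdh4/Q80 and wild type (log2, y axis) against the mean level over 6 mice (x axis), for all 8251 genes in grey and the 44 enzymes in red, with all mice and without Hdh4/Q80 replicate 8. The enzymes' median goes from -0.036 to 0.011 when that mouse is left out.

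Several enzymes had more than 1 probe set, which allowed a check within a gene. Of 15 such genes, 9 had probe sets whose differences were opposite in sign (Hk2, Aldoa, Ldhb, Pcx, Idh3g, Dlst, Sucla2, Got2 and Ckmt1). In 4 of these (Hk2, Ldhb, Idh3g and Got2) the second set was dim. Some of the differences were close to 0, as on both Sucla2 sets (-0.0080 and 0.0030). The share of opposite signs over all genes with several probe sets was not counted, so the 9 cannot be set against a background. The remaining 6 genes (Pfkp, Pkm, Dlat, Idh3a, Glud1 and Pgd) had the same sign on both sets. Pgd was the one enzyme among those with groups apart whose second set pointed the same way with a larger difference. On that second Pgd set the groups overlapped, and without replicate 8 its difference was 0.069. For Idh3a the dim second set, at 2.83, also had all mutants below all wild types (-0.07).

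Of the wider pathway, a list of transporters, regulators and further enzymes outside the set was also read. It had 45 measured genes, with 0 past the adjusted threshold. There 26 genes (57.8%, against 53.3% of all genes) were below 0, with a median difference of -0.039, and without replicate 8 there were 22 below 0 and the median was 0.0034. At an unadjusted p under 0.05 it held 1 gene of 45, which is under the 4.3% of all genes. That gene was Slc16a7, a monocarboxylate transporter of neurons that takes up lactate and pyruvate. Slc16a7 read 4.91, 4.90 and 4.77 in wild type and 4.61, 4.61 and 4.56 in Hdh4/Q80 mice. All mutants lay below all wild types, with a difference of -0.27 ± 0.0709 (interval -0.43 to -0.11; unadjusted p = 0.00373, adjusted p = 0.857 in limma's test), on a dim probe set. The groups were apart for 4 of the 45 genes, 1 higher and 3 lower, where 11.1% of all genes were apart. Pdk3 and Pdk4, further pyruvate dehydrogenase kinases, differed by -0.095 and -0.13 where Pdk1 differed by 0.11. Hif1a, the hypoxia-inducible factor subunit that is known to activate glycolytic genes, read 9.12, 9.17 and 9.20 against 9.16, 9.24 and 9.46. Its groups overlapped, replicate 9 stood highest, and the interval of its difference ran from -0.07 to 0.32. Ppargc1a, a coactivator of mitochondrial genes, differed by -0.14 (interval -0.31 to 0.04).

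Promoter sequences were read because many glycolytic genes are textbook targets of the hypoxia-inducible factors, which bind the core ACGTG. Windows from 250 bases before to 50 after the transcript start were taken from RefSeq (GRCm38.p6) and matched 48 of the 49 genes, all but Idh3a, with 69 windows in all. Ldha and Pgk1 are shown as 2 textbook targets that hold this core. The capitals mark ACGTG or its reverse complement CACGT, and the 250 bases before the start are printed on the gene's strand. The Ldha window shown, the first of 2 in the table, is chr7:46845554-46845803 (strand +) and the Pgk1 window chrX:106186850-106187099 (strand +).
Ldha: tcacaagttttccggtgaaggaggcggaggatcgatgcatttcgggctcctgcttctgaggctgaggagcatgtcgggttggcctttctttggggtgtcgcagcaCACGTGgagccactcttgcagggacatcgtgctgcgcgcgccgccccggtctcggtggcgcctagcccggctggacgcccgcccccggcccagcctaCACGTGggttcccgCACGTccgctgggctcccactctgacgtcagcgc
Pgk1: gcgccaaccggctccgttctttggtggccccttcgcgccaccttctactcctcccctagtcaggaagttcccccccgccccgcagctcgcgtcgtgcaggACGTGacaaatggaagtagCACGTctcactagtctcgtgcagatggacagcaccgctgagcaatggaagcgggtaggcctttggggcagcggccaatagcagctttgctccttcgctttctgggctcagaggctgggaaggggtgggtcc
The core was present on either strand, counting overlapping matches as 1, at 3 places in the printed Ldha window and 2 in that of Pgk1. The second Ldha window (chr7:46846832-46847081, not printed) held 0. A window with it was found for 16 of the 48 genes (33.3%), against 23.2% of 17491 protein-coding genes, and by window in 33.3% against 19.6% of all windows of the same length. The 16 were Hk1, Hk2, Pfkm, Aldoa, Gapdh, Pgk1, Pgam1, Pkm, Ldha, Pdhb, Pcx, Idh3g, Ogdh, Mdh1, Pdk2 and G6pdx. Several of the windows with the core are those of Ogdh, so the share by window counts that gene repeatedly. A second motif, AAGGTCA, bound by the oestrogen-related receptors that act on mitochondrial genes, was in a window of 5 of the 48 genes (10.4%, against 4.73% of protein-coding genes): Ckmt1, Eno1, Got1, Ogdh and Tpi1. A match in these letters does not show that a factor binds there.

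Markers of other cells were read beside the enzymes. The striatal neuron genes Penk, Tac1, Drd2 and Pdyn were well measured (log2 13.02, 9.81, 9.75 and 8.28 in wild type), with Rgs9 dim. Their summed level, which was mostly Penk, overlapped (13.23 to 13.49 in wild type and 13.28 to 13.43 in Hdh4/Q80 mice), with 1 of 5 below 0. The other 7 listed striatal genes had no probe set of their own. The summed level of 5 general neuron markers ran from 12.07 to 12.34 in wild type and 11.78 to 12.19 in Hdh4/Q80 mice, lowest in replicate 8, and 5 of 5 were below 0. Microglial markers ran from 11.78 to 11.85 and 11.37 to 11.67, with 7 of 7 below 0, again lowest in replicate 8. Their differences ran from -0.35 for C1qb to -0.01 for Cx3cr1. The summed blood level was also lower in all mutants (11.64 to 11.88 against 11.31 to 11.46, 2 of 2 below 0). It was mostly Hba-a1, which differed by -0.43, while Alas2 differed by only -0.01. The summed oligodendrocyte level was lower in all mutants too (13.50 to 13.59 against 13.38 to 13.48, 4 of 6 below 0). Its markers did not move together. Mobp differed by -0.31, Mal by -0.23, Mag and Mog by -0.03 each, Mbp by 0.01 and Cnp by 0.12. Astrocyte markers overlapped (11.65 to 11.66 against 11.59 to 11.76, 4 of 6 below 0). Choroid plexus markers, of which Ttr is the best known, ran from 9.04 to 10.56 and from 9.13 to 11.48, highest in replicates 8 and 9, with 0 of 3 below 0. Vessel, cortex and muscle markers overlapped between the groups. Over all genes 53.3% had a difference below 0, and 66.3% of those in the brightest of 4 groups by level. None of the markers passed the adjusted test, and no value on the array is 0. Their part in the enzymes' values was not tested.

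RNA quality was read from the distance between the 3' and 5' control sets. For Gapdh it was 0.255, 0.221 and 0.259 in wild type and 0.116, 0.210 and 0.330 in Hdh4/Q80 mice. For Actb, beta-actin, it was 0.730, 0.566 and 0.623 against 0.634, 0.858 and 0.855. For Pcx it was 2.09, 1.90 and 1.86 against 1.82, 1.95 and 2.16. Replicate 9 had the largest distance for Gapdh and Pcx, where replicate 8 was within the range of the other mice. For Actb replicate 8 had the largest, and replicates 8 and 9 both lay above the remaining mice. The part of RNA quality in the enzymes' values was not tested.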

How the data were processed

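Total RNA from 6 striata was labelled with biotin and hybridised to Affymetrix mouse arrays, 1 per mouse, per the labels' protocols. The authors deposited log2 values, 1 per probe set and array; the submitters' processing notes name RMA and affy, without versions. RMA is meant to equalise arrays and so to remove global shifts. In the deposited values replicate 8 still deviated by 0.034 in the dimmest and -0.092 in the brightest group of all genes. No scanner files were used here, so no probe set was called absent, and the number of arrays limits precision. Array medians were 7.10 to 7.13.

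Manufacturer controls (66 probe sets) did not enter the tests. Of the 12422 others, 10833 name 1 gene, 396 several and 1193 none; the 45 enzymes with a probe set matched the reference gene table (GRCm38.p6). limma 3.58.1 in R 4.3.3 (lmFit, eBayes; 4 residual and 5.81 prior degrees of freedom) was fitted over all 12422 and checked on simulated data. Groups came from the sample titles. Full values were given for the enzyme of smallest p per step, enzymes with groups apart and a panel (Hk1, Pfkm, Gapdh, Eno2, Pkm, Ldhb, Cs, Idh3a, Mdh1, Ckb). The enzymes and lists were chosen with earlier results of these data known. Alternatives were a filter on the dimmest 40%, centring by the median, a second quantile normalization, cyclic loess, array weights, moderation with trend and robust options, averaging the probe sets of each gene, and each mouse left out in turn.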

Additional observations from a re-analysis of the deposited data

How the results depend on the processing

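The count of 0 enzyme probe sets past the adjusted threshold held under every alternative that was run, with a smallest adjusted p of 0.216 with array weights, and 0.0873 over all probe sets in that fit; other alternatives gave 0.500 or more for the enzymes. The count at an unadjusted p under 0.05 went from 1 to 0 without the dimmest 40% of probe sets, to 0 after quantile normalization and to 4 with array weights, where all probe sets had 4.54%, 4.98% and 14.6%. It ran from 0 to 3 of 59 (at most 5.08%) with 1 mouse left out, where all probe sets had 2.02% to 9.28%. Genes with groups apart went from 4 to between 5 and 9 of 44 (11.4% to 20.5%) with 1 mouse left out, where fewer mice separate more easily and all genes had 15.6% to 27.8%. The median difference ran from -0.077 to 0.011. Among the mutants the fit with array weights rested mostly on replicate 7. The sign turned after quantile normalization for Eno2 (0.0037), Pkm (0.017) and Cs (0.024), and after cyclic loess for Eno2 (0.026), Pkm (0.069), Cs (0.033) and Ckb (0.016). It turned for Pkm with array weights (0.055) and for Ckmt1 with the mean of its probe sets (0.011). With 1 mouse left out, Pfkm ran from -0.15 to 0.050, Pgk1 from -0.18 to 0.0063, Pkm from -0.069 to 0.078, Cs from -0.033 to 0.022 and Mdh1 from -0.0052 to 0.073. The cause was not tested. No paired analysis was possible because the titles number wild types 4 to 6 and mutants 7 to 9.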
